A study of Cricetulus griseus with 16 samples.

Results

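Chinese Hamster Ovary (CHO) cells kept at 37 °C without heating were described by the RNA of 3 cultures, replicates A, B and C, out of the 16 libraries of the series. The members are the untreated control libraries, with replicate D left out as the study left it out, and every gene of the count table was described in them. The cells were the ATCC line CCL-61, untreated, grown in Ham's F-12K medium with fetal bovine serum, penicillin and streptomycin at 37 °C under CO2, and seeded a day before collection so that they were growing logarithmically. The study sequenced 4 groups of 4 cultures, of which 1 group stayed at 37 °C and the others were heated to 40 °C (1 h or 6 h) or to 42.5 °C (1 h), and the heated libraries were not used here. The paper calls the cultures biological repeats, and all are of the same cell line. The unheated cultures are a single group, so no test between groups was made, and every value is a level with its spread over these 3 libraries.

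CHO cells were derived from the ovary of a Chinese hamster, grow attached to the dish in serum, and are widely used to make secreted glycoproteins. The line is known to need proline in its medium and to add sialic acid to glycans without the linkage that St6gal1 makes. A dividing mammalian cell gives a large share of its transcripts to translation, the cytoskeleton, energy supply and protein folding, while many genes of other tissues stay silent. The RNA at 37 °C is the state from which a heat response starts, and chaperones that serve normal folding are part of it.

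The counts summed to 13997367, 13281003 and 11346465 in replicates A, B and C. Levels are given as CPM, the counts of a gene scaled to the total of its library. CPM is not corrected for transcript length, so a range of CPM over genes, or the median of a list, is one of shares of reads and not of transcript numbers, and whether a gene passed a given CPM also depends on its length. A gene was called detected when it had at least 1 CPM in each of the 3 libraries, which was 11.3 to 14.0 counts. A gene with 0 counts could still have a level of up to 3 counts, 0.214 to 0.264 CPM in a library, a floor that covers counting error only. Replicate D, with 11579029 counts, stood apart from the other cultures: the biological coefficient of variation (BCV), edgeR's estimate of the spread between cultures beyond counting, was 0.0411 over replicates A to C and 0.148 with replicate D.

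Of 20824 genes, 10215 (49.1%) were detected and they held 99.9% of the counts. Another 2948 genes had at least 1 count but less than 1 CPM in at least 1 library, and together held 0.0659% of the counts. The remaining 7661 genes (36.8%) had 0 counts in all 3 libraries. Single libraries were alike in this respect, with 10357, 10313 and 10308 genes at 1 CPM or more. Most detected genes were at moderate levels, with 6028 between 10 and 100 CPM, 2391 between 100 and 1000 CPM and 92 at 1000 CPM or above. Those 92 genes took 17.8% of the counts and the 2391 below them 55.5%. Of genes with a name, 9121 of 16379 (55.7%) were detected, and of those listed by identifier only or under a name turned into a date, 1094 of 4445 (24.6%) were. The 55.7% is the share to set beside the count of every list and family below, since these hold named genes only. For members with 0 counts in all 3 libraries that share is 30.1%, or 4924 named genes. The unnamed genes held 15.2 to 15.4% of the counts in the 3 libraries, and no name was guessed for them. For that reason a named gene is reported only where the table holds its symbol, and a count of 0 says that no read was assigned to that entry.

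**Figure D1:**
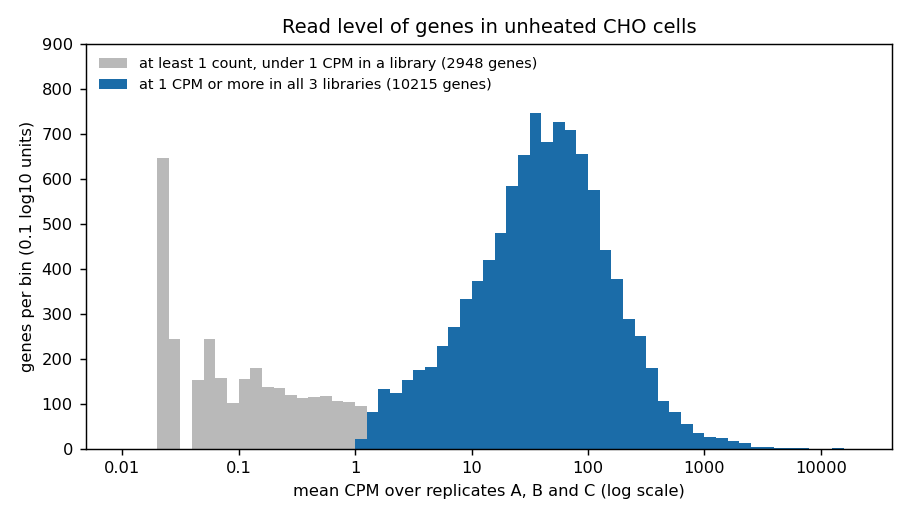
Histogram of genes by mean level over replicates A, B and C, in CPM on a log scale, with the number of genes per bin on the vertical axis. The 10215 detected genes (blue) form a single peak between 10 and 100 CPM, the 2948 genes with counts below the cut (grey) lie to its left, partly behind the blue bars near 1 CPM, and the 7661 genes at 0 are not drawn.

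Of the 20 most counted genes 13 had a name. They were 3 genes of translation, 4 mitochondrially encoded subunits, 3 folding genes, and Actb, Vim and Igfbp4. The 100 most counted genes of each library took 19.1%, 18.2% and 18.5% of its counts, a mean of 18.6% ± 0.435 (SD, n = 3), and 887 to 916 genes held 50% of the reads. EEF1A1, the elongation factor that brings aminoacyl-tRNA to the ribosome, was at 13539, 13261 and 13770.4 CPM in replicates A, B and C. Its gene has many processed copies in mammalian genomes, and how reads with several places were counted is not given in the sources used here, so this value is uncertain. Eef2, which moves the ribosome along the mRNA, was at 2971, 2898 and 2727 CPM, and the small-subunit ribosomal protein gene Rps2 was at 3201, 3084 and 2896 CPM. Actb, the cytoskeletal actin, was at 4369, 4411 and 4105 CPM. Igfbp4, a secreted protein that binds insulin-like growth factors, was at 4350.4, 4205 and 4251 CPM, and its libraries lay within a coefficient of variation (CV, the SD as a percent of the mean) of 1.74%. The other 7 of the 20 had an identifier only, and the highest of them, ENSCGRG00001006857, was at 5444, 5635 and 5632 CPM. The folding genes of the 20 were Hsp90ab1, Hsp90b1 and Hspa5, and the mitochondrially encoded ones COX1, COX2, COX3 and ND2.

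Marker lists were used to check the label of the cells. Mesenchymal and fibroblast markers were detected in 15 of 21 genes, against 55.7% of all named genes, with a median of 11.6 CPM beside 6.39 CPM over all named genes. Vim, the intermediate filament protein of mesenchymal cells, was at 2349.6, 2239 and 2265 CPM. The transcription factors that repress epithelial genes were present, with Zeb1 at 73.7, 83.7 and 73.9 CPM, Zeb2 at 64.5, 65.1 and 65.4 CPM and Snai2 at 19, 20.4 and 20.4 CPM. Prrx1, a homeobox factor of limb and connective tissue mesenchyme, was at 67.4 ± 6.89 CPM (SD, n = 3). The receptor Pdgfra was at 43.6 ± 2.66 CPM and the matrix proteoglycan Dcn at 38.5 ± 2.37 CPM. The chief fibrillar collagen of fibroblasts was an exception, since Col1a1 had at most 0.176 CPM and Col1a2 at most 0.0753 CPM in any library. Thy1 and Lum had 0 counts, and Cdh2, the cadherin of mesenchymal cells, stayed at 0.368 ± 0.0778 CPM. The labels give no cell type beyond the CHO line, and the list was met in the filament, the repressors and the receptors and not in type I collagen.

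Epithelial markers were almost absent, with 1 of 13 detected and a median of 0.0238 CPM. Epcam, Krt19, Cldn3, Cldn4, Cldn7 and Esrp1, which cover adhesion, filaments, tight junctions and splicing of epithelial cells, had 0 counts in all 3 libraries. The detected member, the epithelial cadherin Cdh1, was at 1.86, 2.86 and 4.23 CPM, from 26 to 48 counts per library. Krt8 and Krt18 were not among the named entries and were not analysed here. Keratins as a family, grouped by symbol, had 2 of 43 genes detected and 38 at 0, and Krt80 was at 61.2, 58.1 and 55.3 CPM.

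Of the ovarian cell types, granulosa cell markers were detected in 5 of 12 genes (41.7%, beside 55.7% of all named genes). The theca, ovarian surface and germ cell lists had 1 detected gene each. Gata4, a transcription factor of gonadal somatic cells and of heart and gut, was at 50.8, 47.5 and 47.1 CPM, and Inhbb, the beta B subunit of inhibin and activin, was at 49.2, 44.3 and 41.3 CPM. Amh, the hormone of granulosa and Sertoli cells, was at 4.43, 1.96 and 3.0 CPM, Inha at 1.14, 1.73 and 1.67 CPM and Hsd17b1 at 1.5, 1.2 and 1.23 CPM. Foxl2, the factor that defines granulosa cells, the follicle-stimulating hormone receptor Fshr and the aromatase Cyp19a1 had 0 counts. Of 6 theca and luteal markers only Star, the cholesterol carrier of steroid-making cells, was detected, at 4.86, 4.44 and 3.97 CPM, while Cyp11a1, Lhcgr and Insl3 were at 0. Of 7 markers of the ovarian surface only Lhx9, a factor of the early gonad, was detected, at 7.93, 9.11 and 8.81 CPM, and Wt1 reached at most 0.753 CPM. Of 11 germ cell markers Ddx4, an RNA helicase that defines germ cells, was detected, at 1.33 ± 0.101 CPM, and the zona pellucida genes Zp1, Zp2 and Zp3 were at 0.

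Markers of leukocytes, endothelial cells, muscle and neural cells were mostly at or near 0. None of 9 leukocyte markers was detected, 7 had 0 counts, Ptprc and Spi1 among them, and the list summed to 0 to 0.143 CPM per library. None of 8 endothelial markers was detected, the highest being Vwf at 0.786, 0.527 and 0.264 CPM, with Kdr and Erg at 0. Of 12 muscle and neural markers, Myh11, the smooth muscle myosin, was detected at 1.36, 1.88 and 1.85 CPM, and 8 had 0 counts. These counts stand beside 55.7% detected over all named genes and describe short lists.

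**Figure D2:**
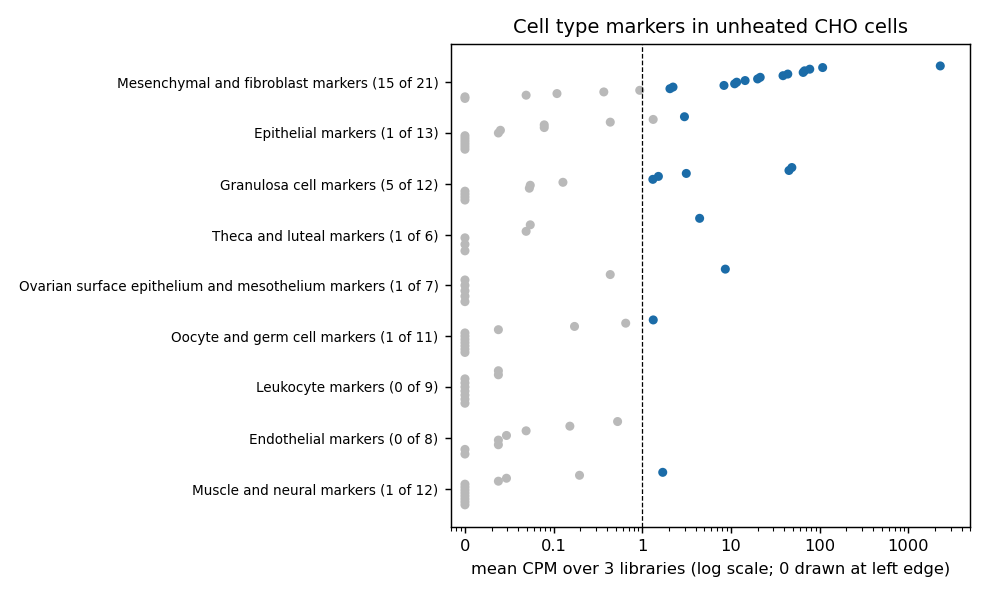
Mean level in CPM over 3 libraries (log scale, genes at 0 drawn at the left edge) of each marker gene, 1 point per gene, by cell type list; blue points were detected, grey points were not, and the dashed line is at 1 CPM. The mesenchymal list is the only one with most of its genes to the right of the line, 15 of 21, and the leukocyte and endothelial lists have none there.

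HOX genes, which carry the position of a cell along the body axis and are numbered by their order in 4 clusters, were detected in 23 of 38 cases found by name (60.5%), beside 55.7% of all named genes. Another 2 had counts but missed the cut and 13 had 0 counts. All 9 genes of number 11 or above were at 0 in the 3 libraries, and of 29 genes of number 10 or below 23 were detected. The boundary at 11 was placed after the values had been seen, just above the highest number detected, and the last detected number was lower in clusters B and D. At the low end of the numbers Hoxb1 and Hoxd1 were at 0 as well. In cluster A, 8 of 11 genes were detected, Hoxa10 being the last by number. Hoxa2 was at 0.643, 0.753 and 1.06 CPM and passed the cut in replicate C only. Hoxa7 was at 5.57, 5.2 and 5.46 CPM.

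Cluster B was detected from Hoxb2 to Hoxb7 without a gap, 6 of 10 genes. Hoxb7 was at 27.6, 32.9 and 31.6 CPM. The next by number, Hoxb8, was at 0.572, 0.376 and 0.176 CPM, below the cut in every library. Hoxb1, Hoxb9 and Hoxb13 were at 0. In cluster C the 6 genes from Hoxc4 to Hoxc10 were detected and Hoxc11, Hoxc12 and Hoxc13 were at 0. Hoxc10, the last detected gene of its cluster, was at 32.1, 34.4 and 32.9 CPM, and the next gene by number had 0 counts in libraries where 1 CPM was at least 11.3 counts. Hoxc4 was at 11, 12.7 and 12.1 CPM and Hoxc5, Hoxc6, Hoxc8 and Hoxc9 had means from 2.72 to 8.98 CPM. Cluster D had 3 of 8 genes detected, Hoxd3 at 1.43, 1.05 and 1.59 CPM, Hoxd8 at 46.9, 42.3 and 47.4 CPM and Hoxd9 at 17.3, 19.2 and 15.7 CPM, while Hoxd1 and Hoxd10 to Hoxd13 were at 0. Hoxd4 was not among the named entries and was not analysed here.

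**Figure D3:**
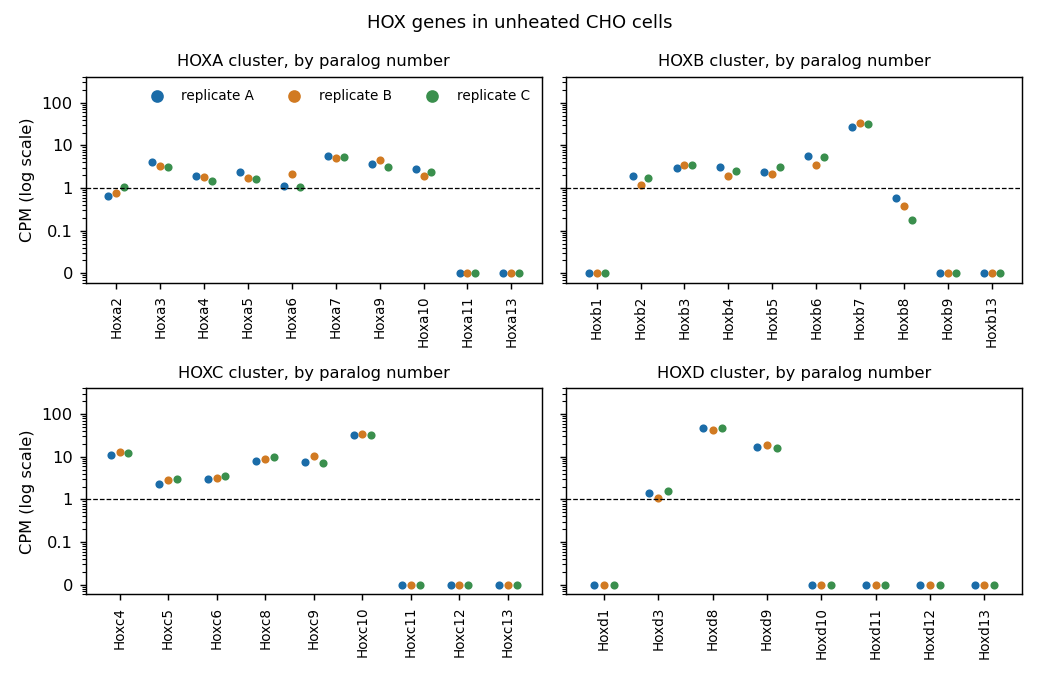
Level in CPM (log scale, 0 drawn at the bottom) of the HOX genes reported by name in replicates A, B and C, in 4 panels by cluster and ordered by the number in the gene's name; the dashed line is at 1 CPM. Points of number 11 and above lie at 0 in every panel, as do Hoxb1, Hoxb9, Hoxd1 and Hoxd10, and Hoxb7, Hoxc10 and Hoxd8 lie between 27.6 and 47.4 CPM.

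Genes of the extracellular matrix were detected in 21 of 34 cases (61.8%, beside 55.7% of all named genes), with a sum of 5892, 5905 and 5840 CPM in replicates A, B and C. Among them were the proteins of the basement membrane, the sheet under epithelia and around other cells. Laminin subunits Lamc1 at 1033, 1053 and 1038 CPM, Lamb1 at 742, 726 and 747 CPM and Lama5 at 686, 604 and 618 CPM are chains that combine in a laminin trimer. The perlecan gene Hspg2 was at 832, 823 and 795 CPM and the linker nidogen, Nid1, at 521, 569 and 544 CPM. In contrast to these, the type IV collagen network of a basement membrane had Col4a1 at 2.29, 2.33 and 1.94 CPM and Col4a2 at no more than 0.151 CPM. Among fibrillar collagens, Col5a1 was at 303 ± 5.05 CPM, Col5a2 at 376 ± 8.62 CPM and Col3a1 at 108 ± 4.18 CPM (SD, n = 3), beside the type I chains near 0. Fibronectin, Fn1, was at 349, 368 and 366 CPM and the collagen-binding Sparc at 293, 298 and 293 CPM. Tnc, Eln, Nid2 and Lama1 had no more than 0.143 CPM in any library.

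Integrins, the receptors that hold cells to this matrix, were detected in 9 of 25 genes (36.0%, beside 55.7% of all named genes). The beta 1 subunit Itgb1 was at 1585, 1533 and 1557 CPM and Itgb5 at 512, 513 and 478 CPM. The alpha subunits detected were Itga3 at 96.7 ± 2.81 CPM, Itga5, which forms the fibronectin receptor with beta 1, at 189 ± 6.63 CPM, Itgav at 195 ± 8.48 CPM, Itga7 at 15.3 ± 0.138 CPM, Itga1 at 5.72 ± 0.763 CPM and Itga2b at 4.99 ± 0.325 CPM. Itga6, an alpha subunit of laminin receptors, stayed at 0.429, 0.0753 and 0.0881 CPM. Among the integrins known from leukocytes, Itgb2, Itgad and Itgax had 0 counts, Itga4, Itgal and Itgb7 had at most 2 counts in a library, and Itgae had 6, 7 and 6 counts in replicates A, B and C, below the cut.

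Growth factor receptors were detected in 25 of 40 genes (62.5%, beside 55.7% of all named genes), with a median of 12.9 CPM. Of the epidermal growth factor receptor family, only Erbb2 was detected, at 62.3, 67.6 and 66.1 CPM. Egfr had a single count, in replicate B, Erbb3 a single count, in replicate C, and Erbb4 stayed at 0.286, 0.226 and 0.0881 CPM. The TAM receptor Axl, which binds Gas6, was at 633, 625 and 647 CPM, and Met, the receptor of hepatocyte growth factor, at 312, 336 and 312 CPM. Among fibroblast growth factor receptors, Fgfr1 was at 85.7, 97.7 and 92.2 CPM and Fgfr3 at 10.3, 9.34 and 9.61 CPM, while Fgfr2 and Fgfr4 had no more than 0.264 CPM. The collagen receptor Ddr2 was at 153, 174 and 147 CPM and Ddr1 at 92.9, 103 and 95.9 CPM. Receptors for insulin-like growth factors were present with Igf1r at 13.7 ± 0.447 CPM, Insr at 27.6 ± 1.55 CPM and Igf2r, which clears IGF2 and sorts lysosomal enzymes, at 285 ± 16.4 CPM. All 3 of Tgfbr1, Tgfbr2 and Tgfbr3 were detected, Tgfbr2 at 161, 163 and 163 CPM. Kit, Csf1r, Kdr and Flt4, receptors of blood, germ and vessel cells, had 0 counts.

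Many chaperones of normal folding were detected in the unheated cells. All 3 HSP90 genes found were detected. The cytosolic Hsp90ab1 was at 3386, 3709 and 3874 CPM and lowest in replicate A, the endoplasmic reticulum (ER) form Hsp90b1 was at 2296, 2299.5 and 2447 CPM, and the mitochondrial Trap1 was at 407, 402 and 381 CPM. Of 11 genes of the HSP70 and HSP110 family, 7 were detected (63.6%, beside 55.7% of all named genes), Hspa5 at 2097, 2085 and 2204 CPM, Hsph1 at 334, 333 and 327 CPM and Hspa4 at 219, 209 and 221 CPM. Hspa2, known from male germ cells, was at 55.4, 56.6 and 42.9 CPM, and the germ cell form Hspa1l was at 0.643, 0.151 and 0.264 CPM. The stress-inducible Hspa1a and Hspa1b, and Hspa8, Hspa9 and Hsp90aa1, are not named entries of the table and were not analysed here.

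Among 10 genes listed as small heat shock proteins, 4 were detected (40.0%, beside 55.7% of all named genes). Another 4 had 0 counts, beside 30.1% of all named genes. Hspb1, the gene of Hsp25, was at 56.4, 51.1 and 58 CPM and Hspb8, the partner of Bag3, at 194, 195 and 210.1 CPM. Hspb6 was at 4.86, 3.76 and 5.73 CPM and Hspb11 at 13.4, 14.8 and 14.5 CPM. Cryab, the alpha-B crystallin of lens and muscle, was below the cut at 0.429, 0.527 and 0.0881 CPM, and Hspb2, Hspb3, Hspb7 and Cryaa had 0 counts. The J-domain co-chaperones, which stimulate HSP70, were detected in 17 of 18 genes, the exception being Dnaja4 at 0. Their levels ran from 1.75 ± 0.344 CPM in Dnajb14 to 361 ± 19.6 CPM in Dnajc10, and the heat-inducible Dnajb1 was at 29.4, 27.1 and 30.8 CPM. Chaperonins were detected in 7 of 8 genes, with the mitochondrial HSPD1 at 1612, 1636 and 1790.3 CPM, the subunits of the cytosolic ring between 599 and 916 CPM on average, and Cct6b, a subunit known from testis, at 0.253 ± 0.0935 CPM. Of the heat shock transcription factors, Hsf1, the main regulator, was at 112, 121 and 119 CPM and Hsf2 at 41.2, 43.1 and 50.2 CPM. Hsf4, a factor of the lens, was below the cut at 0.643, 0.979 and 0.793 CPM and Hsf5 had at most 0.0881 CPM. Hsbp1, which binds Hsf1, was at 67.2, 64.3 and 57.8 CPM.

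All 18 ER folding genes found were detected, with a median of 329 CPM beside 6.39 CPM over all named genes. The lectin chaperone Calr was at 1707, 1721 and 1725 CPM, with a CV of 0.562%, and Canx at 424, 432 and 438 CPM. The disulfide isomerases P4hb, Pdia3 and Pdia6 had means of 825 ± 22.4, 682 ± 40.4 and 990.2 ± 32 CPM (SD, n = 3), and the oxidase Ero1l that recharges them was at 231 ± 11.7 CPM. Sil1, the nucleotide exchange factor of Hspa5, was the member with the smallest share of reads, at 21.4, 24.6 and 20.2 CPM.

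Of 19 genes listed as sensors and factors of ER stress, 15 were detected (78.9%, beside 55.7% of all named genes), with a median of 47 CPM. The detected ones include Eif2ak1, Eif2ak2 and Eif2ak4, kinases of the integrated stress response that are not sensors of the ER. Atf6 was at 104, 111 and 108 CPM, Eif2ak3, the gene of PERK, at 48.9, 47.4 and 44.6 CPM and Ern1, the gene of IRE1, at 18.6, 17.1 and 16.6 CPM. Ern2, the form of secretory epithelia, was at 0. Atf4, the transcription factor of the integrated stress response, was at 189, 178 and 233 CPM, a CV of 14.6%. Its target Ddit3, the gene of CHOP, was at 5.14, 4.29 and 5.73 CPM, from 57 to 72 counts per library. Xbp1, whose mRNA IRE1 splices, was at 38.7, 32 and 36.8 CPM, and a gene count cannot tell the spliced from the unspliced form.

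Genes that build N-glycans on secreted proteins were mostly detected up to the complex type, and some members had 0 counts. The oligosaccharyltransferase moves the glycan to the protein. It had 8 of 9 subunit genes detected (88.9%, beside 55.7% of all named genes), and Ost4 was listed at 0. Its catalytic subunits Stt3a and Stt3b were at 243, 239 and 235 CPM and 189.7, 195 and 185 CPM. Of 17 trimming and branching genes 13 were detected (76.5%, beside 55.7% of all named genes). Mgat1, which starts complex glycans, was at 38.3, 40.6 and 38.7 CPM, Mgat2 at 53.4, 58.4 and 57.9 CPM, Mgat4b at 49.2, 47.2 and 47.2 CPM and MGAT5 at 35.8, 34.8 and 31.8 CPM. Mgat3, which adds the bisecting residue, was at 0.143, 0.151 and 0.176 CPM, below the floor in each library, and Mgat4a, Mgat4c and Mgat5b had 0 counts.

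Fut8, which adds the core fucose, was at 51.9, 54.6 and 59.9 CPM, whereas Fut1, Fut4, Fut7 and FUT9, which fucosylate the outer arms, had 0 counts. The donor pathway of fucose was detected with Gmds at 21 ± 2.37 CPM, Tsta3 at 43.4 ± 3.16 CPM and the transporter Slc35c1 at 86.5 ± 2.75 CPM. All 7 beta-galactosyltransferases B4galt1 to B4galt7 were detected, with means from 7.44 to 70.6 CPM. Ggta1, which makes the alpha-galactose epitope of most mammals, stayed at 0.214, 0 and 0.0881 CPM.

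Sialylation genes were detected in 17 of 30 cases (56.7%, beside 55.7% of all named genes), and members differed between and within families. All 6 members of the St3gal family were detected, from 15.1 ± 0.778 CPM in St3gal2 to 212 ± 8.48 CPM in St3gal1, and St3gal4 was at 38.2, 37.2 and 39.5 CPM. The 2 members of the St6gal family, St6gal1 and St6gal2, had 0 counts in all 3 libraries, which at this depth allows up to 0.264 CPM in a library. Of the St6galnac family, St6galnac4 at 26.4, 24.2 and 23.7 CPM and St6galnac6 at 24.5, 29 and 24.3 CPM were detected, while St6galnac1, St6galnac2 and St6galnac3 were at 0. Of the polysialyltransferases and their relatives only St8sia4, which makes polysialic acid on NCAM, was detected, at 18.4, 20.7 and 21.5 CPM. The donor pathway was complete in the named genes, with Gne at 26.3 ± 2.77, Nans at 142 ± 6.88, Nanp at 17.9 ± 1.45, Cmas at 136 ± 3.6 and the transporter SLC35A1 at 45.5 ± 3.94 CPM. Cmah, which makes the glycolyl form of sialic acid, was at 1.21, 0.678 and 0.705 CPM and passed the cut in replicate A only. Sialidases were also present, the lysosomal Neu1 at 41.4, 42.4 and 34.8 CPM and the cytosolic NEU2 at 43.4, 46.5 and 39.7 CPM, with Neu4 at 0.

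Proline and serine synthesis genes were detected in 10 of 12 cases. Aldh18a1, the enzyme that carries glutamate to the first step of proline synthesis, was below the cut in every library, at 0.643, 0.753 and 0.705 CPM from 8 to 10 counts. The later step was present, with Pycr1 at 23.1, 25.3 and 22 CPM. Oat, which links ornithine to the same pathway, was at 12, 12.3 and 12.1 CPM, and Prodh, which starts proline breakdown, had 0 counts. The serine and glycine enzymes were all detected, Phgdh at 268, 273 and 261 CPM, Psat1 at 239, 251 and 239 CPM and Shmt2 at 367, 381 and 385 CPM. Genes used for selection in mammalian cell culture were detected in 10 of 10 cases, among them Hprt at 121, 136 and 142 CPM and APRT at 83.4, 87.3 and 86.9 CPM.

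Lipid genes were examined because the study asked how membranes change with heat. Cholesterol synthesis and uptake genes were detected in 26 of 28 cases (92.9%, beside 55.7% of all named genes), with a median of 57.6 CPM. Sqle, the squalene epoxidase, was at 284, 299 and 309 CPM and Cyp51, the lanosterol demethylase, at 111, 116 and 119.7 CPM. The regulator of the pathway Srebf2 was at 212, 231 and 203 CPM and SREBF1, the regulator of fatty acid genes, at 11.9, 12.1 and 11.1 CPM.

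Fatty acid genes were detected in 17 of 23 cases (73.9%, beside 55.7% of all named genes). Fasn, the fatty acid synthase, was at 770.4, 761 and 741 CPM and Acaca, which makes its substrate, at 228, 235 and 222 CPM. Of the delta-9 desaturases, which make monounsaturated fatty acids, Scd1 was at 351, 389.5 and 387 CPM and Scd2 at 108, 125 and 124 CPM. Of the desaturases of polyunsaturated fatty acids, Fads1 was at 25.4, 28.7 and 24.5 CPM, and Fads2, the first enzyme of that pathway, had 1 count in replicate A and 0 in the others. Of the elongases, ELOVL5 being at 250.3, 270.4 and 258 CPM and Elovl1, ELOVL4, ELOVL6 and ELOVL7 at means of 12.4 to 30.5 CPM, while Elovl2 and ELOVL3 were at 0. Elovl2 acts after ELOVL5 on polyunsaturated chains.

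Ceramide and sphingolipid enzymes were detected in 21 of 27 cases (77.8%, beside 55.7% of all named genes). Of the ceramide synthases found, which differ in the acyl chain they prefer, Cers5 at 74.1, 77 and 67.6 CPM, Cers2 at 59.8, 65.6 and 59 CPM and Cers6 at 18.7, 19.6 and 17.5 CPM were detected and Cers3, of skin and testis, was at 0. The first enzyme of the pathway had its subunits SPTLC1 at 100.01 ± 7.33 CPM and SPTLC2 at 86.3 ± 1.1 CPM, and Sptlc3 was at 0. Degs1, the ceramide desaturase, was at 230.04, 236 and 252 CPM and Degs2 had no more than 0.143 CPM. Phospholipid enzymes were detected in 36 of 39 cases, with all but Etnk2, Lpcat2 and Mboat2, which had 0 counts. Among the enzymes that put fatty acids back on lysophospholipids, Lpcat3 was at 94.2, 99.9 and 91.5 CPM, Lpcat4 at 100.02, 107 and 102 CPM, Mboat7, which works on lysophosphatidylinositol, at 17, 16.9 and 13.6 CPM and Lpcat1 at 6.07, 7.68 and 6.61 CPM.

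**Figure D4:**
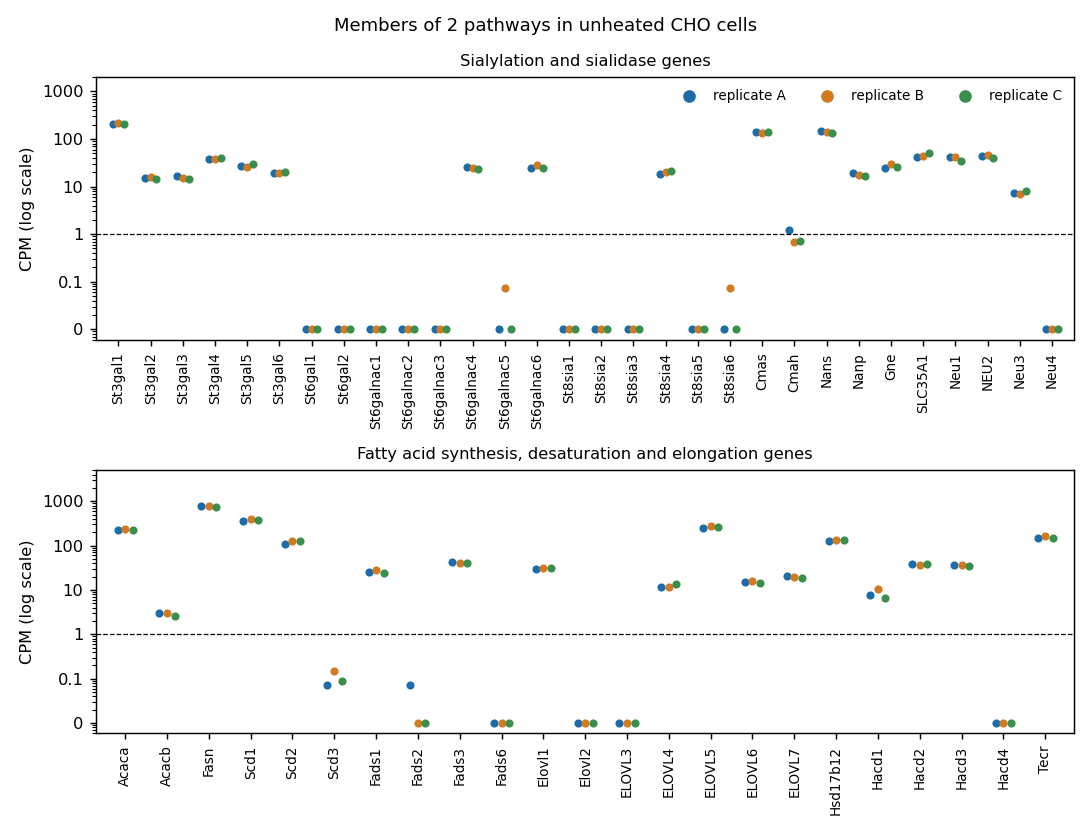
Level in CPM (log scale, 0 drawn at the bottom) in replicates A, B and C of each sialylation and sialidase gene (top) and each gene of fatty acid synthesis, desaturation and elongation (bottom); the dashed line is at 1 CPM. All 6 St3gal genes lie at 14.2 CPM or more in every library and both St6gal genes at 0, and in the lower panel Fads2, Elovl2 and ELOVL3 lie at or near 0 beside detected Fads1 and ELOVL5.

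All 20 genes found of the tricarboxylic acid cycle list were detected, with a median of 183 CPM. They ranged from 38.5 ± 2.24 CPM in Idh1 to 619 ± 22.6 CPM in Sdha. The list also holds genes beside the cycle: the cytosolic Idh1 and Mdh1, Pdha1 and Dlat of pyruvate dehydrogenase, and the pyruvate carboxylase Pc. Of 20 genes of the glycolysis list, which includes lactate dehydrogenases and lactate transporters, 11 were detected, 55.0% beside 55.7% of all named genes. The hexokinases Hk1 at 337, 331 and 321 CPM and Hk2 at 149, 150.2 and 151 CPM were present, and Hk3 had at most 0.353 CPM. PGK1 was at 759.9, 763 and 771 CPM and Pgam1 at 862, 823 and 862 CPM, whereas the muscle form Pgam2 had a single count in replicate B. Ldhb, the heart form of lactate dehydrogenase, had 0 counts, and Ldha and Gapdh are not named entries. The lactate transporter Slc16a1 was at 345, 357 and 367 CPM and Slc16a3 had at most 0.226 CPM. Of 11 glucose transporters 3 were detected (27.3%, beside 55.7% of all named genes). They were Slc2a1, the general form, at 83.3, 80.6 and 77 CPM, Slc2a8 at 14.3, 15.7 and 16.9 CPM and Slc2a13, which carries inositol, at 47.4, 45.9 and 44.4 CPM. Slc2a3, of neurons, had a single count in replicate A and Slc2a4, the insulin-regulated form, stayed at 0.643, 0.678 and 0.441 CPM.

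The translation machinery was detected in full among the factors, 29 of 29 genes with a median of 354 CPM. Eif4g1 and Eif4g2, scaffolds of initiation, were at 1786, 1827 and 1816 CPM and 1926, 2033 and 2113 CPM, and Eif4a1, the helicase, at 1463, 1491 and 1539 CPM. The form of neurons and muscle, Eef1a2, was at 1.21, 1.51 and 1.59 CPM. Families grouped by symbol after the counts had been read showed how the reads were spread over the rest of protein turnover and respiration. Cytosolic ribosomal protein genes took 2.72%, 2.69% and 2.70% of the counts over 44 named genes, of which 39 were detected. All 70 mitochondrial ribosomal protein genes were detected and took 0.439 to 0.450% of the counts. Proteasome subunits took 0.889 to 0.901%, with 39 of 41 genes detected, and nuclear-encoded subunits of the respiratory chain and ATP synthase 0.873 to 0.888%, with 65 of 72. Ribosomal protein genes that the table lists without a name are not in this share.

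The cells carried the transcripts of active division. All 23 genes of S phase and mitosis were detected, with a median of 326 CPM. Top2a, the topoisomerase of replication and chromosome separation, was at 1606, 1685 and 1834 CPM and Mki67 at 609, 596 and 663 CPM. Helicase subunits Mcm2 to Mcm7 had means from 382 to 578 CPM. Of 32 cyclins, kinases, inhibitors and pocket proteins 29 were detected, Ccnd1 at 500.2, 459 and 487 CPM, CCNB1 at 421, 412 and 418 CPM and Cdk1 at 272, 272 and 293 CPM. Ccna1 and Ccnb3, cyclins of germ cells, were at 0. The inhibitor Cdkn1a, a target of p53, was at 35.2, 37.5 and 52.2 CPM, highest in replicate C, and Cdkn1c had a single count in replicate B.

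Among 19 genes of the BCL2 family and p53, 12 were detected (63.2%, beside 55.7% of all named genes). Trp53 was at 83.7, 83.9 and 88.6 CPM and Mdm2, its ubiquitin ligase and target, at 174, 175 and 180.1 CPM. Of the protective members, Bcl2l1 was at 57.2, 57.8 and 60.2 CPM, Mcl1 at 79.2, 61.6 and 64.2 CPM, and BCL2 itself at 5.07, 3.69 and 2.29 CPM, from 26 to 71 counts per library. The effectors Bax at 49.4, 48.1 and 47.2 CPM and Bak1 at 65.2, 68 and 67.4 CPM were both present and Bok had a single count in replicate C. Of the BH3-only members, Bid was at 24.3 ± 0.608, Bcl2l11 at 14.1 ± 0.53 and Bbc3 at 5.33 ± 0.114 CPM, while Hrk and Pmaip1 were at 0.

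Of 23 Toll-like receptors and nucleic acid sensors 14 were detected (60.9%, beside 55.7% of all named genes), with a median of 2.35 CPM. TLR4, the receptor of lipopolysaccharide, was at 54.2, 58.2 and 60.3 CPM and its adaptor Myd88 at 78.4, 76.7 and 77.8 CPM. Tlr2 was at 13.1, 12.9 and 12.2 CPM and the double-stranded RNA receptor Tlr3 at 1.86, 2.26 and 1.5 CPM, while Tlr5, Tlr8 and Tlr9 were at 0. The cytosolic DNA sensors Cgas at 20.2, 19.5 and 22.7 CPM and Aim2 at 59.3, 62.2 and 66.8 CPM were detected, and Tmem173, the gene of STING that acts after Cgas, was at 0, 0.301 and 0.0881 CPM. In the RNA branch, Ddx58, Ifih1 and Mavs were all detected, with means of 8.32 ± 1.18, 12.8 ± 0.616 and 31 ± 0.703 CPM.

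Of 28 TRP, Piezo and store-operated calcium channel genes 10 were detected (35.7%, beside 55.7% of all named genes). Among members linked to temperature sensing, Trpv1 had a single count in replicate C and Trpv3, Trpv4, Trpa1 and Trpm2 were at 0. Trpv2, which opens at noxious heat and on stretch, was at 45.3, 46.1 and 49.1 CPM and Trpm4 at 19.4, 18.5 and 17.9 CPM. Trpm7, a magnesium and calcium channel with a kinase domain, was at 223, 235 and 239 CPM and the mechanosensor Piezo1 at 119, 104 and 100.03 CPM. The calcium store sensors Stim1 and Stim2 and the pores Orai1, Orai2 and Orai3 were all detected, with means from 5.82 CPM in Orai3 to 58.6 CPM in Stim2.

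Of the larger families grouped by symbol, olfactory receptor and cytochrome P450 genes were mostly undetected. Of 496 named olfactory receptor genes 0 were detected and 477 had 0 counts, and together they held 25, 15 and 9 counts in replicates A, B and C. Cytochrome P450 genes were detected in 7 of 46 cases (15.2%, beside 55.7% of all named genes), Cyp51 among them. Solute carriers were detected in 162 of 346 cases (46.8%), with 116 at 0. Zinc finger genes named Zfp or Znf were detected in 198 of 247 cases (80.2%), beside 55.7% of all named genes, and their median level was 7.75 CPM.

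The spread between the 3 cultures was small for most genes. Over 8511 genes with a mean of at least 10 CPM, the median CV was 4.47%, beside a median of 3.76% that Poisson counting alone would give. In 7752 of them (91.1%) the CV was under 10%, and in 26 it was 20% or more. At 100 CPM or more, where counting adds less, the median CV over 2483 genes was 3.31% beside 2.09% from counting. With 3 libraries the CV of a single gene is itself imprecise, so these values describe the set of genes.

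The share of mitochondrially encoded subunits differed between cultures. Their 13 genes took 3.06%, 2.23% and 2.31% of the counts in replicates A, B and C, a mean of 2.53% ± 0.461 (SD, n = 3). Among these 3 libraries all 13 genes were highest in replicate A. In replicate D, which was left out, the share was 3.31%, above that of replicate A. COX1, the catalytic subunit of cytochrome oxidase, was at 9994, 6849.6 and 6706 CPM, a CV of 23.7%. ND2 of complex I was at 2852, 2163 and 2329 CPM and ATP6 of the ATP synthase at 2297, 1572 and 1810.3 CPM. Nuclear-encoded subunits of the same complexes took 0.888%, 0.879% and 0.873% of the counts in the same libraries, a mean of 0.880% ± 0.00787 (SD, n = 3). The libraries of the nuclear-encoded subunits thus lay closer together than those of their mitochondrially encoded partners. Replicate A also had the largest total count, whose part in this was not tested.

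The 10 genes with the highest CV at a mean of at least 10 CPM were mostly unnamed, 3 with a symbol and 7 without. ENSCGRG00001011332 had the largest CV, 53.9% beside 2.71% from counting, at 139, 142 and 40.5 CPM, low in replicate C. ENSCGRG00001012586 went the other way, at 147, 143 and 275 CPM, high in replicate C. ENSCGRG00001012940 was at 409, 229.8 and 252 CPM, high in replicate A. The named genes were 4930486L24Rik at 25.3, 14.7 and 15.9 CPM, Scmh1, a Polycomb group gene, at 9.29, 8.28 and 13.2 CPM and Tceal8 at 8.93, 9.71 and 13.7 CPM. Just below them in CV came COX1 and ND4L, and then Dusp6, a phosphatase that switches off ERK, at 19.5, 12.3 and 15.4 CPM. The 10 genes were chosen by their CV, so these values describe the choice and test nothing.

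**Figure D5:**
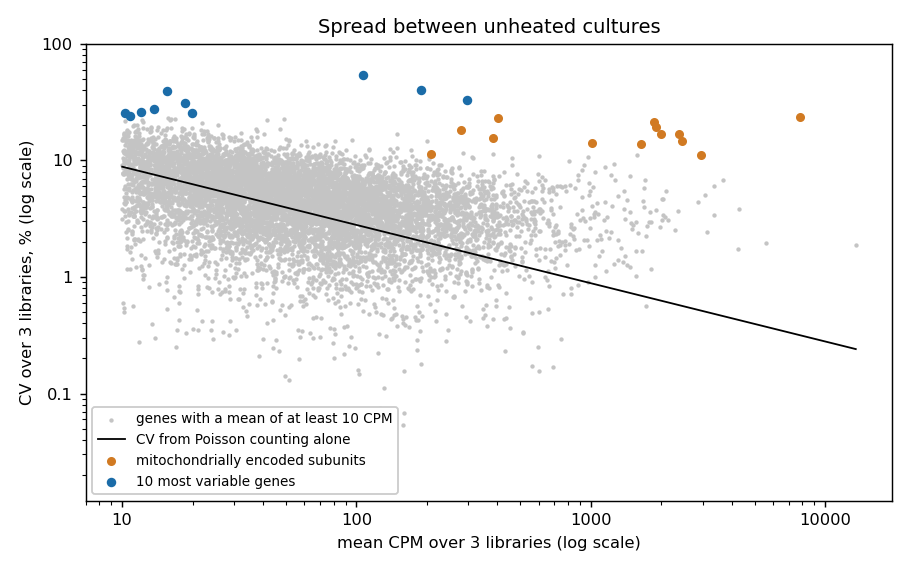
CV over replicates A, B and C (percent, log scale) against mean level in CPM (log scale) for the 8511 genes with a mean of at least 10 CPM, with the CV that Poisson counting gives as a line; orange points are the 13 mitochondrially encoded genes and blue points the 10 genes with the highest CV. Most genes lie under 10%, and the mitochondrially encoded genes lie above most other genes of like level, between 11.2% and 23.7%.

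Replicate D, the library left out, was set beside the mean of the others for the list members with a mean of at least 10 CPM. The 6 members farthest from that mean by fold were all lower in replicate D. Cdk6, a kinase of the G1 phase, was at 127, 133 and 111 CPM in replicates A, B and C and at 23.7 CPM in replicate D. The receptor of bone morphogenetic proteins Bmpr2 was at 28.4, 34 and 30.4 CPM and at 9.67 CPM, and the ethanolamine kinase Etnk1 at 22.3, 26 and 22.6 CPM and at 8.29 CPM. Of members described above, Hspg2 was at 273 CPM in replicate D, Ddr2 at 53 CPM and Cers6 at 6.3 CPM. The cytosolic ribosomal protein genes took 3.71% of the counts in replicate D. These members were chosen by this fold, so it describes the choice, and the reason for the difference was not tested.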

How the data were processed

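RNA of CHO cells was sequenced with the TruSeq RNA kit in paired-end reads. According to the paper's methods, mapping and counting were done in CLC Genomics Workbench on the hamster assembly CHOK1GS_HDv1. The authors deposited the read counts per gene and library, whole numbers without normalization. The annotation release, the strand setting and the handling of reads with several places are not given in the sources used here.

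Of the 16 libraries, 37 °C replicates A, B and C were used, replicate D entered alternatives only, and heated libraries were not used here. Counts were divided by each library's total (11346465 to 13997367) to give CPM, with detection at 1 CPM in each library and a floor of 3 counts per library. TMM factors and dispersions came from edgeR 4.0.16 in R 4.3.3, median-ratio size factors from DESeq2 1.42.0, and other values from pandas 2.3.3 in Python 3.11.15. No test between groups was made. On 10341 genes simulated for the 3 libraries with a BCV of 0.05 edgeR recovered 0.0501. In a separate simulation 175 of 200 genes given a BCV of 0.5 were among the 200 with the highest CV. The 10 real genes with the highest CV had lower tagwise BCVs, from 8.76% to 23.0%, so this recovery does not apply to them.

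Genes named are the 20 with the highest mean CPM, the 10 with the highest CV at a mean of at least 10 CPM, and members of 42 lists, of whose 826 names 751 genes were found. The lists, like the libraries described, were chosen with earlier results of these data known. Families grouped by symbol, the genes next in CV and their members were added with the counts already read. Of the genes, 4423 are listed by identifier only and 22 under dates. Transcript lengths and sequences of the build used were not used here, so genes were not compared per length. Some genes of the lists are counted in them but not reported here by name.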

Additional observations from a re-analysis of the deposited data

Results flagged for a closer look

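With replicate D included, 44 sums were examined over the 4 libraries at 37 °C for a library whose gap to the nearest of the others passed Dixon's 95% limit for 4 samples. Chance flags about 1 in 20 such groups of like samples, and 13 of the 44 passed. The study had already left replicate D out as inconsistent with its group. The number of flags therefore describes that library and is no separate support for leaving it out. In 12 of the 13 the library was replicate D, 6 times high and 6 times low. The exception was the number of genes at 1 CPM or more, 10357 in replicate A and 10307 to 10313 in the others.

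The sums flagged as low in replicate D were mostly those of cell surface and matrix genes. Sums that did not pass the limit could be low as well, as the fatty acid genes at 1738 CPM in replicate D beside 2216 to 2315 CPM in the others. The collagens and matrix proteins summed to 3446 CPM in replicate D and to 5840 to 5905 CPM in the others, the growth factor receptors to 1573 CPM beside 2234 to 2287 CPM, the integrins to 2166 CPM beside 2569 to 2637 CPM, and the TRP, Piezo and store-operated channels to 400.3 CPM beside 542 to 545 CPM. The BCL2 family and p53 summed to 485 CPM beside 554 to 566 CPM, and solute carriers took 0.959% of the counts beside 1.03 to 1.04%.

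The sums flagged as high in replicate D were mostly those of ribosomal, proteasome and respiratory genes. Cytosolic ribosomal protein genes took 3.71% of the counts in replicate D and 2.69 to 2.72% in the others, mitochondrial ribosomal protein genes 0.572% beside 0.439 to 0.450%, proteasome subunits 1.06% beside 0.889 to 0.901%, and nuclear-encoded respiratory chain and ATP synthase subunits 1.14% beside 0.873 to 0.888%. The HOX genes summed to 228.8 CPM beside 198 to 203 CPM, and the oligosaccharyltransferase genes to 2422 CPM beside 2373 to 2380 CPM. The sums share a library and are not independent, and the cause of the difference was not tested.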

How the results depend on the processing

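The number of genes detected in every library, 10215, was 10215 with TMM factors and with DESeq2's size factors, 10238 to 10259 with 1 library left out, 10155 with all 4 libraries, and from 9242 at 5 CPM to 13163 at 1 count in any library. The share of the 100 most counted genes, 18.6%, was 17.5% of counts outside the mitochondrially encoded genes, 19.5% with all 4 libraries, and 18.4 to 18.8% with 1 library left out. The mitochondrially encoded share was 2.27 to 2.68% with 1 library left out, lowest without replicate A, and 2.73% with all 4. The 10 genes with the highest CV depended most on the choices: 4 to 7 of the 10 stayed among them with 1 library left out, 4 without replicate A or replicate C, 2 with all 4 libraries, 1 at a mean of at least 1 CPM and 9 by edgeR's tagwise BCV. With 3 libraries, single genes in that list are therefore not stable, and the cause was not tested. Of 771 gene levels, all stayed within 1 SD under TMM and under median-ratio size factors. A mean of 3 libraries cannot move by 1 SD when 1 is left out, so for these settings the change itself is given, at most 1.298, 1.305 and 1.311-fold without replicates A, B and C among genes at 1 CPM or more. Of the same levels 230 moved beyond it with all 4 libraries, by at most 1.335-fold among genes at 1 CPM or more, and 113 with the other denominator, by at most 1.027-fold. Of 42 list sums, 21 and 27 moved in these settings. No paired analysis was possible because the unheated cultures are a single group and no result comes from a test between groups. Depth limits statements on low genes, since a gene with 0 counts could still have a level of up to 0.214 to 0.264 CPM in a library. Transcripts on unnamed or shared entries cannot be assigned.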
